A study of Mus musculus with 4 samples.

Results

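The paraoxonases are a family of calcium-dependent hydrolases encoded by Pon1, Pon2 and Pon3, which lie side by side on mouse chromosome 6. They were examined in late fetal lungs, at embryonic day E18.5, of Fgf8 hypomorph mice, genotype Fgf8H/-, and of wild type littermates, genotype Fgf8+/+, both on a background that the labels give as c57nl7/sv129. The sample titles name the mutant AP/N, letters that the labels do not explain, nor do they describe how the hypomorph allele was built. Lobes were freed of large airways and vessels, and each RNA sample pooled 3 lungs of a genotype. On each of 4 two-colour Agilent arrays a hypomorph pool (Cy5) was set against a wild type pool (Cy3), giving n = 4 pools per genotype. The members were all spots other than controls that the array design names Pon1, Pon2 or Pon3, which gave 3 of 28478 named genes and transcripts and 6 of 41174 probes. The family was chosen with its hypomorph over wild type ratios on these arrays known, so those ratios are described without a test and support nothing by themselves.

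Pon1 and Pon3 are made mainly by the liver and travel in the blood on high density lipoprotein (HDL), where they hydrolyse lactones and protect lipids from oxidation. Pon1 owes its name to paraoxon, the toxic product of an organophosphate insecticide that it cleaves. Pon2 stays inside cells, is made in many tissues and is known in airway epithelium for breaking down the lactone signals of bacteria.

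Hypomorph RNA carried Cy5 throughout, so the dye and the genotype cannot be told apart at a single probe. Between 32731 and 34519 of 43379 spots other than controls were well above background for the hypomorph, and between 32491 and 33744 for the wild type. All 6 paraoxonase probes were well above background in all 8 pools, none was saturated, and every raw intensity was at least 30.3 times its local background. The number of arrays limits the precision. RNA of whole lobes was measured, so fewer cells of a type and less RNA per cell cannot be told apart.

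The bases just before the start sites differ between the 3 genes, and they are shown because several factors whose own transcripts were measured bind the motifs searched here. Each window holds the 250 bases before the start site on the minus strand of chromosome 6 in build GRCm38.p6, from RefSeq, and capitals mark motifs found on either strand. The window is chr6:5193947-5194196 for Pon1, chr6:5256234-5256483 for Pon3 and chr6:5298341-5298590 for Pon2.
Pon1: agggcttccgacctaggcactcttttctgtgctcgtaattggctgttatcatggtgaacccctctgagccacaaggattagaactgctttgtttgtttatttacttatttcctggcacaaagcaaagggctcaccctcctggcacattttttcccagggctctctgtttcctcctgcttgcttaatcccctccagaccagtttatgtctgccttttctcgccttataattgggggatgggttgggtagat
Pon3: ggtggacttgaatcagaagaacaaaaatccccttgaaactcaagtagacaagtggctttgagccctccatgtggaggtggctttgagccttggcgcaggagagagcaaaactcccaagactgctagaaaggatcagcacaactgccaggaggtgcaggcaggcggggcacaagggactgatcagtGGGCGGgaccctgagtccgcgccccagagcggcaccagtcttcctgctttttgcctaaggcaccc
Pon2: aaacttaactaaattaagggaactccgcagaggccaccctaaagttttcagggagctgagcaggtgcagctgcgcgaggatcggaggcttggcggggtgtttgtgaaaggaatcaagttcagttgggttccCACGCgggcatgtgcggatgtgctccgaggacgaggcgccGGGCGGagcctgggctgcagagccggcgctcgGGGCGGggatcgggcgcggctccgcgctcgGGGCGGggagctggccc
The Pon2 window had 65.6% G and C and 24 CG dinucleotides, the Pon3 window 56.8% and 6, and the Pon1 window 47.6% and 3, against medians of 52.4% and 6 over 32526 such windows of mouse genes. The Sp1 GC box, GGGCGG, occurred 3 times before Pon2, once before Pon3 and not before Pon1, and 33% of all windows held it. The core of the response element of the aryl hydrocarbon receptor, GCGTG, occurred once before Pon2 and in 28.4% of all windows. The AP-1 site TGACTCA (4.45% of windows), the sterol response element (0.0738%) and the PPAR response element (0.0338%) matched none of the 3 windows on either strand. No motif searched overlapped another. The letters describe these windows only.

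Pon1 had the lowest ratio of the family. Its single probe, A_51_P108659 for transcript NM_011134, lies at chromosome 6, 5118166 to 5118225 in build mm8. Normalized intensities, after loess within arrays and quantile scaling of average brightness between them, were 8396, 9160, 8456 and 9641 in the hypomorph pools of arrays 1 to 4, against 22433, 21253, 17740 and 17237 in the wild type pools. The groups did not overlap, and the highest hypomorph pool shared its array with the lowest wild type pool. On the log2 scale the hypomorph pools averaged 13.12 ± 0.10 and the wild type pools 14.25 ± 0.19 (SD, n = 4 each), so the wild type pools varied more. The log2 ratio of hypomorph over wild type was -1.42, -1.21, -1.07 and -0.84 on arrays 1 to 4. The spot on array 4, which gave the smallest difference, carried a background outlier mark in the wild type channel and was left out of the mean. The mean over the other 3 arrays was -1.23 ± 0.18 (SD, n = 3), 2.35-fold lower in the hypomorph, and with the marked spot kept it was -1.13 ± 0.24 (SD, n = 4), 2.20-fold lower. Among 20623 genes tested, 13 had a lower mean ratio. Counted from the lowest, Pon1 thus ranked 14, and it ranked 20 with the marked spot kept and between 11 and 48 over 15 alternative settings. The 1827 other genes within 0.5 log2 units of its brightness had a median log2 ratio of -0.05, and the central 90% of them spanned -0.40 to 0.27.

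**Figure D1:**
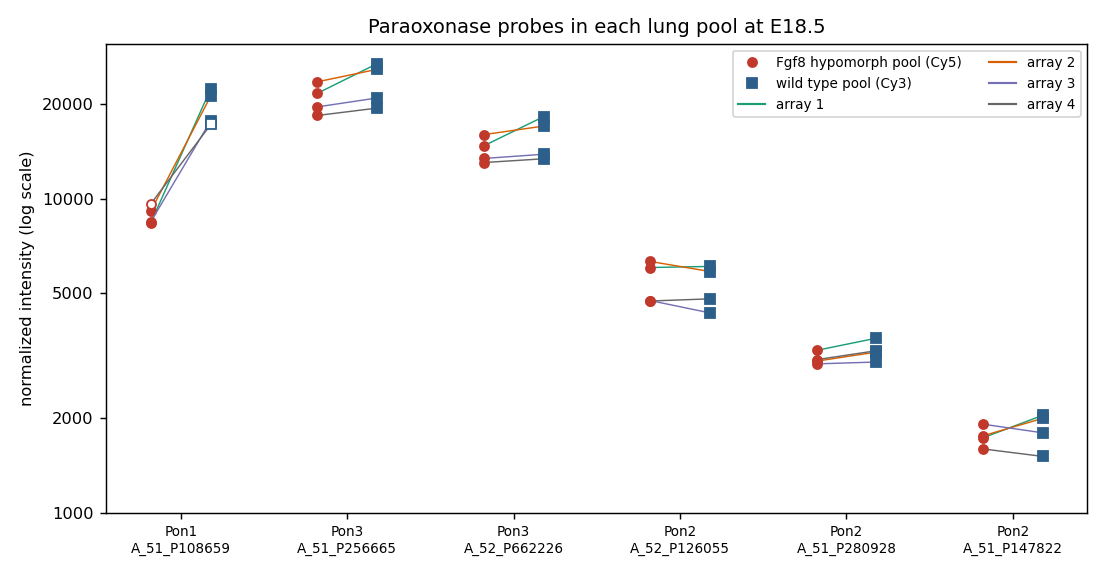
Normalized intensity (log axis) of the 6 paraoxonase probes in each pool at E18.5, with hypomorph pools (Cy5, circles) left of wild type pools (Cy3, squares) and a line joining the pools of an array; open symbols mark the spot with an outlier mark. Pon1 lay between 8396 and 9641 in hypomorph pools and between 17237 and 22433 in wild type pools, whereas the pools of the genotypes overlapped at every Pon3 and Pon2 probe.

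Pon3, the other member carried on HDL, lay slightly below 0 on all 4 arrays after loess. Its brighter probe, A_51_P256665 at chromosome 6, 5171553 to 5171612 (mm8), had normalized intensities of 21664, 23573, 19610 and 18416 in hypomorph pools, against 26941, 25845, 20945 and 19443 in wild type pools. The genotypes overlapped, and arrays 1 and 2 were the brighter in both. The log2 ratios were -0.31, -0.13, -0.10 and -0.08, with a mean of -0.16 ± 0.11 (SD, n = 4), 1.11-fold lower. The other probe, A_52_P662226, starts at 5171573 and shares 40 of its 60 bases with the first, so it is no independent measure of the transcript. Its log2 ratios of -0.31, -0.09, -0.04 and -0.04 averaged -0.12 ± 0.13, and the probes differed by -0.03 ± 0.02 (SD, n = 4). At both probes array 1 gave the lowest ratio. Of all genes tested, 22.1% had a lower mean ratio than Pon3. Its sign rests on the normalization, since centring each array on its median in place of loess gave 0.29, where the median of all genes was 0.13 and Pon3 stood 0.16 above it.

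Pon2, the intracellular member, stayed close to 0, and its probes differed in sign. The brightest, A_52_P126055 at chromosome 6, 5219051 to 5219110 (mm8), had 6036, 6311, 4737 and 4721 in hypomorph pools, against 6085, 5860, 4326 and 4796 in wild type pools. The genotypes overlapped, with 2 ratios above 0 and 2 below. Its log2 ratios were -0.01, 0.11, 0.13 and -0.02, with a mean of 0.05 ± 0.08 (SD, n = 4). The probe A_51_P280928 averaged -0.09 ± 0.05 and was below 0 on 4 of 4 arrays. Its position covers 1991 bases of the genome, whereas the other 5 cover 60 each. The probe A_51_P147822, designed on transcript AK018124 at 5213311 to 5213370, averaged -0.06 ± 0.17, with -0.24 and -0.19 on arrays 1 and 2 and 0.09 and 0.08 on arrays 3 and 4. The mean of the 3 probes was -0.03 ± 0.08 (SD, n = 4). The files do not say whether a probe lies in an exon or a UTR.

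**Figure D2:**
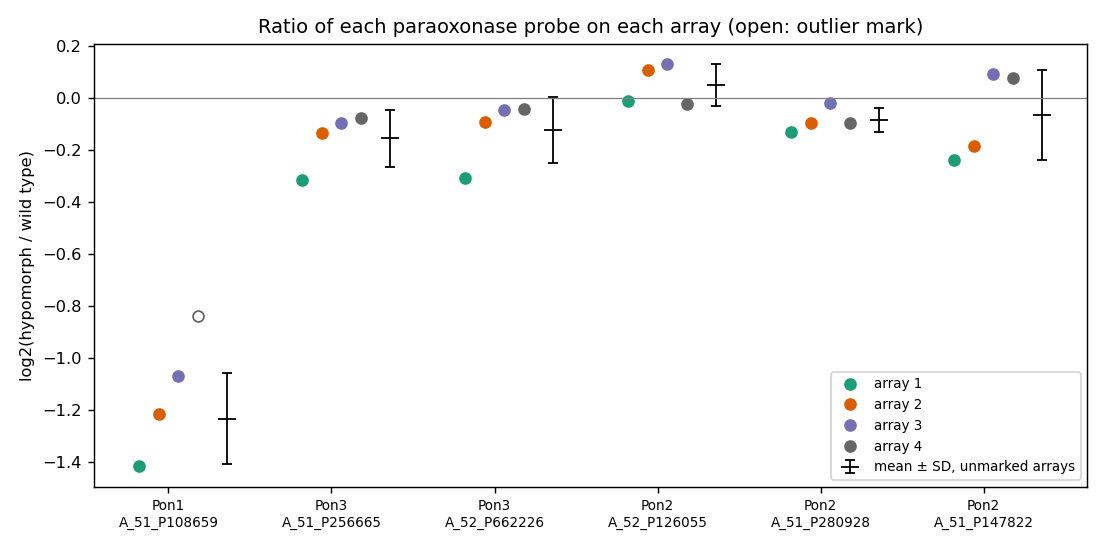
Log2 ratio of hypomorph over wild type for each paraoxonase probe on arrays 1 to 4 (coloured points, open where the spot carried an outlier mark), with the mean and SD over the unmarked arrays in black. Pon1 ranged from -1.42 to -0.84, while the lowest value of any Pon3 or Pon2 probe was -0.31.

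The members can also be set against each other within an array, where pools and hybridisation are shared. The log2 ratio of Pon1 minus that of Pon3 was -1.10, -1.08, -0.97 and -0.76 on arrays 1 to 4, with a mean of -0.98 ± 0.16 (SD, n = 4, marked spot kept). Pon1 minus Pon2 averaged -1.19 ± 0.26 and Pon3 minus Pon2 -0.21 ± 0.11 (SD, n = 4). These are differences between ratios, not between the levels of the genes. For all 3 pairs the difference was largest on array 1 and smallest on array 4.

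At an adjusted p under 0.05 in limma's moderated test, 1 of the 3 members was called, Pon1, where 27.2% of the 20623 genes tested were called in either direction and 13.2% were called lower. Because the family was chosen on this contrast, nothing is read from that count. With median centring in place of loess, 8336 genes were called higher and 2456 lower, against 2878 higher and 2726 lower as reported. Without replicate 2 the count over the whole table was 1411, against 5604 with all arrays, without replicate 3 it was 2070 and without replicate 4 it was 3636.

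**Figure D3:**
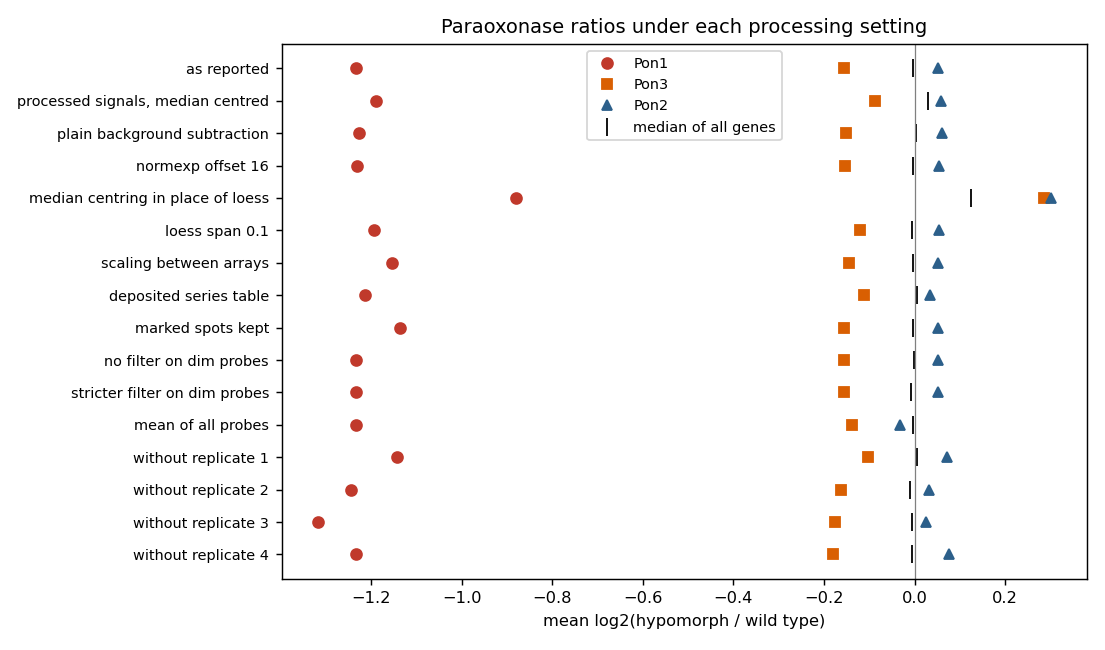
Mean log2 ratio of Pon1 (circles), Pon3 (squares) and Pon2 (triangles) and the median of all genes (bars) under the processing as reported, 11 alternatives and 4 fits without a replicate each. Pon1 stayed between -1.32 and -0.88, and Pon3 moved to 0.29 with median centring.

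The genes whose 4 ratios lay nearest to those of a member, by root mean square difference (RMS), were listed as a description. For Pon1 they were Gipr, the receptor of an incretin hormone (RMS 0.13 over 3 arrays, mean log2 ratio -1.28 ± 0.11), the atypical chemokine receptor Ackr2 (RMS 0.15, mean -1.23 ± 0.11) and the connexin gene Gjb6 (RMS 0.16, mean -1.06 ± 0.19). Few genes had ratios this low, and 1 transcript lay within 0.1 of Pon1, which is not named because it bears only an accession, clone or gene model name. For Pon2 they were Klhl15, Tmem41b and the sodium pump subunit gene Atp1b3 (RMS between 0.01 and 0.02 over 4 arrays), and 2573 genes lay within 0.1 of Pon2. Those of Pon3 were Sec61b, a subunit of the protein translocation channel, Ripk5 and Cracr2b (RMS 0.02 each, over 3 or 4 arrays), with 1581 genes within 0.1.

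The 3 genes lie within 100.9 kb as measured by their probes, and their neighbours on chromosome 6 were read to see whether the low ratio of Pon1 extended along it. Of 15 neighbouring genes and transcripts within 1 Mb, 12 were tested, of which 2 rose, 1 fell and 9 did not pass, a share of 25% called against 27.2% of all genes. The 15 include ENSMUST00000047700, which was tested, and AK050119, which was not, both described in the files as paraoxonase transcripts. The list's median was -0.06, against -0.00 for all genes. Ppp1r9a, which encodes an actin-binding protein of neurons and lies next to Pon1, had log2 ratios of -0.69, -0.30, -0.23 and -0.08 at its brightest probe, with a mean of -0.33 ± 0.26 (limma, adjusted p = 0.0573), while its other 5 probes averaged between -0.22 and -0.07. On the far side of Pon2, Asb4, which encodes a ubiquitin ligase adaptor, was at -0.11 ± 0.19 and did not pass (adjusted p = 0.310). The gene after it, Pdk4, an inhibitory kinase of pyruvate dehydrogenase, fell 1.74-fold (-0.80 ± 0.10, adjusted p = 0.00135). Its normalized intensities were 2437, 2163, 2506 and 2937 in hypomorph pools, against 3858, 3837, 4646 and 5201 in wild type pools, without overlap. Farther out, the dynein chain gene Dync1i1 (0.41 ± 0.22, adjusted p = 0.0223) and the mitochondrial carrier gene Slc25a13 (0.23 ± 0.13, adjusted p = 0.0379) rose. Over the fits that left out 1 array the count of 3 called neighbours ranged from 1 without replicate 2 or replicate 3 to 6 without replicate 1, and Pdk4 was called in each. The share of all genes called was 6.79% without replicate 2, 9.95% without replicate 3 and 28.5% without replicate 1.

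The probes described as paraoxonase transcripts under other names were not counted among the members. ENSMUST00000047700, described as paraoxonase 2, gave log2 ratios of -0.93, -0.18, -0.11 and -0.18, lower on array 1 than any probe named Pon2. AK050119, a liver tumour clone described as paraoxonase 1, was well above background in 0 hypomorph pools and 1 wild type pool and was not tested.

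**Figure D4:**
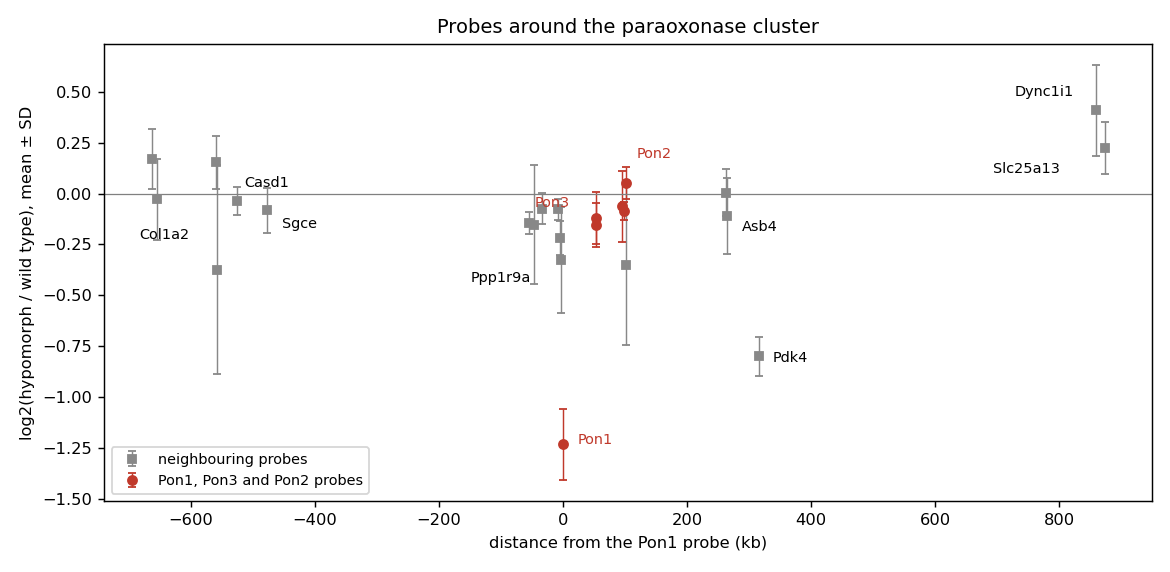
Mean log2 ratio and SD of probes that passed the filter on dim probes, by distance in kb from the Pon1 probe, with Pon1, Pon3 and Pon2 in red circles and neighbours in grey squares. Pon1 (-1.23) and Pdk4 (-0.80) were the lowest of the probes shown, with Pon3, Pon2 and Asb4 between them at values close to 0 and ENSMUST00000047700, described as paraoxonase 2, at -0.35.

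Genes of proteins that form HDL, move its lipids or act beside Pon1 on it were read next. Of 17 listed genes 14 were tested, of which 5 fell, 1 rose and 8 did not pass, a share of 42.9% called against 27.2% of all genes, and the median log2 ratio was -0.14. Scarb1, the HDL receptor, fell 1.42-fold (-0.51 ± 0.04, adjusted p = 0.00179 in limma). Its intensities were 7095, 6465, 7425 and 7614 in hypomorph pools, against 9767, 9412, 10734 and 10721 in wild type pools, without overlap. The small apolipoprotein gene Apoc1 fell 1.64-fold (-0.71 ± 0.21, adjusted p = 0.00452), with 7586, 10494, 7196 and 8162 in hypomorph pools, against 15396, 15515, 11383 and 12423 in wild type pools. These groups did not overlap either. The cholesterol exporter Abcg1 (-0.37 ± 0.09, adjusted p = 0.00665) and the endothelial lipase Lipg (-0.37 ± 0.13, adjusted p = 0.0106) fell too, and Clu, also called apolipoprotein J and named here as the single gene that rose, was at 0.29 ± 0.14 (adjusted p = 0.0222). Apoe, a lipoprotein ligand, at -0.06 ± 0.06 (adjusted p = 0.331), and the lipid exporter Abca1, at -0.14 ± 0.08 (adjusted p = 0.0679), did not pass. Apoa1, the main protein of HDL, was well above background in 0 hypomorph pools and 3 wild type pools, so it passed the filter only through wild type pools. It was dim in both genotypes, with 73, 72, 71 and 73 in hypomorph pools, against 78, 79, 74 and 73 in wild type pools. Apoa1 was not called (adjusted p = 0.299). Without replicate 2, where 6.79% of all genes were called, the count of 6 called genes was 3, and Lipg and Clu were not among them. With median centring, where 52.3% of all genes were called, 4 rose and 6 fell, and Abcg1 was not called (-0.08, adjusted p = 0.391).

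Factors reported to act on paraoxonase genes had small ratios in both directions. Of 10 listed, 9 were tested, of which 3 fell, 1 rose and 5 did not pass (44.4% called against 27.2% of all genes), and the median was -0.12. With median centring 3 regulators were called higher by limma and none lower, where 52.3% of all genes were called. There 3 of the 9 had an unadjusted p under 0.05. Srebf2, the sterol-sensing factor, was at -0.35 ± 0.05 (n = 3, limma, adjusted p = 0.0113), the aryl hydrocarbon receptor gene Ahr at -0.30 ± 0.13 (adjusted p = 0.0189) and the AP-1 subunit gene Jun at -0.20 ± 0.09 (adjusted p = 0.0320), all called lower. Pparg, a nuclear receptor of lipid metabolism, rose (0.22 ± 0.04, adjusted p = 0.0141) and was called higher with median centring too. Sp1, which binds the GC box shown above, was at 0.09 ± 0.04 (adjusted p = 0.133) and did not pass. With median centring it was called higher (limma, adjusted p = 0.00048), and in no other alternative. The calls changed with the arrays used and with the scaling. Without replicate 2, and likewise without replicate 3, limma called 0 of the 9 at an adjusted p under 0.05. An unadjusted p under 0.05 was seen for 4 of them without replicate 2 and 5 without replicate 3, and 2 were called without replicate 4. Calls were lost over the whole table too, with 6.79% of all genes called without replicate 2, 9.95% without replicate 3 and 17.5% without replicate 4. With median centring Srebf2 (0.09), Ahr (0.09) and Jun (0.12) were not called. Their ratios lay above 0 there, though below the 0.13 median of all genes.

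Other esterases and lactonases were called about as often as genes at large. Of 19 listed genes 16 were tested, of which 3 rose, 1 fell and 12 did not pass (25% called against 27.2% of all genes), with a median of -0.03. The carboxylesterase gene Ces1f fell 1.83-fold (-0.87 ± 0.05, adjusted p = 0.00101 in limma), with 389, 356, 329 and 417 in hypomorph pools, against 705, 619, 608 and 795 in wild type pools. The groups did not overlap. Ces2e, at 0.38 ± 0.23 (adjusted p = 0.0292), and the platelet activating factor hydrolase subunit Pafah1b3, at 0.19 ± 0.07 (adjusted p = 0.0312), were called higher. The remaining gene counted as higher, Bche, a cholinesterase that binds organophosphates, was well above background in 4 hypomorph pools and 1 wild type pool. It passed the filter only through the hypomorph pools, so no size is given, and it was not called with median centring (adjusted p = 0.270). Among those that did not pass were the epoxide hydrolase Ephx1 (-0.11 ± 0.05, adjusted p = 0.0864) and the carboxylesterase Ces1d (-0.04 ± 0.05, adjusted p = 0.446). Without replicate 2 or replicate 3, where 6.79% and 9.95% of all genes were called, 1 gene of the list was called, Ces1f.

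Markers of lung epithelium, and of hepatocytes as the main source of Pon1 in the body, were read beside its ratio. Of 17 type 2 cell markers 14 were tested, of which 2 fell, 2 rose and 10 did not pass (28.6% called against 27.2% of all genes), with a median of 0.06. Summed over the 9 with values on all arrays, their intensities ranged from 241747 to 276717 in hypomorph pools and from 283515 to 298347 in wild type pools. The complement gene Hc held much of that difference, with 81173, 85251, 87858 and 86897 in hypomorph pools, against 129319, 122243, 107322 and 116444 in wild type pools. Its mean log2 ratio was -0.48, but 0.30 with median centring, where the median of all genes was 0.13. With marked spots kept, all 17 were measured and their median was 0.13. That added the bright genes Sftpc (0.46 ± 0.17), Lyz2 (0.29 ± 0.20) and Sftpd (-0.58 ± 0.21). Sftpa1 was then read from a brighter probe, at 0.33 in place of -0.16. The sums over all 17 ranged from 1162711 to 1197352 in hypomorph pools and from 1011028 to 1158021 in wild type pools. The order of the sums thus turned with the spots and probes included.

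Of 12 club and secretory airway cell markers, 10 were tested, of which 4 fell, 2 rose and 4 did not pass (60% called against 27.2% of all genes), with a median of -0.03. Sums over 8 of them ranged from 281119 to 338595 in hypomorph pools and from 251274 to 301313 in wild type pools. The carbonyl reductase gene Cbr2 made up most of each sum, with 174312, 179601, 219049 and 205663 in hypomorph pools, against 132820, 137468, 154563 and 145009 in wild type pools. Cbr2 had the smallest p and rose (0.45 ± 0.07, adjusted p = 0.00314 in limma). That call was lost with a loess span of 0.1 (0.04), processed signals (0.09) and the deposited series table (0.07). The xenobiotic oxidase genes Fmo2 (-0.53 ± 0.11, adjusted p = 0.00317) and Cyp4b1 (-0.57 ± 0.05, n = 3, adjusted p = 0.00392) fell. Their calls were lost with median centring, at -0.17 for Fmo2 and -0.16 for Cyp4b1. Scgb3a1 (-0.86 ± 0.58, adjusted p = 0.0314) and Gabrp (-0.37 ± 0.24, adjusted p = 0.0338) were called lower too, and Kcnk1 (0.15 ± 0.06, adjusted p = 0.0481) higher. Over 15 alternatives Scgb3a1 was called in 11, Gabrp in 8 and Kcnk1 in 5.

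Of 18 hepatocyte markers, 17 of them on the array, 13 were tested, of which 5 fell and 8 did not pass in limma (38.5% called against 27.2% of all genes), with a median of -0.33. Their sums over the 11 with values on all arrays ranged from 5039 to 6159 in hypomorph pools and from 6418 to 9097 in wild type pools. The retinol carrier gene Rbp4 made up most of each sum, with 3934, 4319, 4243 and 3393 in hypomorph pools, against 5854, 5175, 5660 and 4746 in wild type pools. With marked spots kept, the sums over all 13 ranged from 34449 to 39586 in hypomorph pools and from 41657 to 47807 in wild type pools. The brightest marker, Trf, made up most of those sums. It was at -0.27 ± 0.06 with marked spots kept, but at 0.29 with median centring. The dimmer marker Ambp had log2 ratios of -1.61, -1.30, 0.11 and -0.05, and Apoa2 of -0.81, -0.80, 0.05 and 0.26, low on arrays 1 and 2 only. Afp, also dim, went the other way on these arrays, with 0.32, 0.33, 0.08 and -0.02, and did not pass (adjusted p = 0.118). Ahsg, a liver plasma protein, had log2 ratios of -1.77, -1.68, -1.02 and -0.41, and fell 2.33-fold (-1.22 ± 0.64, adjusted p = 0.0154). Its probe was dim, with 182, 181, 118 and 97 in hypomorph pools, against 623, 579, 240 and 129 in wild type pools, and the genotypes overlapped. The call was lost without replicate 2 (-1.07, adjusted p = 0.0787) and without replicate 3 (-1.29, adjusted p = 0.0508), at ratios of similar size. Ahsg lay below Pon1 with median centring (-1.25), an offset of 16 (-1.43), plain background subtraction (-1.66), processed signals (-1.87), the deposited series table (-1.90), marked spots kept (-1.22), a loess span of 0.1 (-1.23), scaling between arrays (-1.16) and without replicate 4 (-1.49). Albumin (Alb) was well above background in all 8 pools, with ratios of -0.32, -0.37, 0.29 and 0.42 (adjusted p = 0.980), and Ttr, Fga and Serpina1b were in none. Their part in the Pon1 ratio was not tested.

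**Figure D5:**
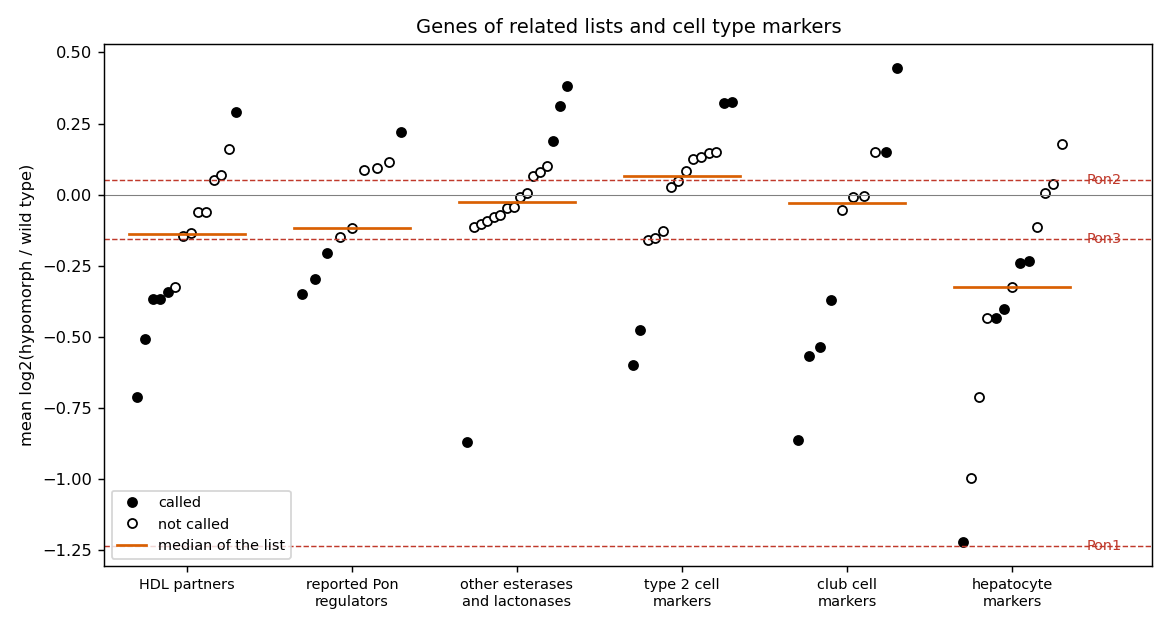
Mean log2 ratio of each tested gene in the HDL, regulator and esterase lists and in the cell type markers, filled where called at an adjusted p under 0.05, with the list's median in orange and dashed lines at Pon1, Pon3 and Pon2. The hepatocyte marker Ahsg, at -1.22, lay nearest to Pon1, at -1.23, an order that turned under several other settings.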

How the data were processed

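Total RNA of E18.5 lung lobes was hybridised to 4 two-colour Agilent arrays, 1 pool of each genotype per array. Nothing in the labels says that the pools came from separate litters. The p-values set each mean ratio against the spread of ratios between these 4 arrays, and they do not separate dye from genotype. The deposited intensities are spot mean and local background values from Agilent Feature Extraction 9.5.1, per the file headers. The authors' deposited series table was found to hold the log2 ratio of processed red over green, and its column medians were -0.02, -0.00, -0.05 and -0.02. The log10 ratio and processed intensity per spot, per the file headers, come from the same software.

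Here intensities were background corrected (normexp, offset 50), spots with outlier marks removed (2136 to 2219 per array) and ratios normalized by loess (span 0.3, control spots at weight 0) in limma 3.58.1 under R 4.3.3. Probes entered the test when, on 3 or more arrays, either channel was well above background and the ratio was measured. The brightest probe stood for a gene, and genes were called at a Benjamini-Hochberg adjusted p under 0.05. Signals shown per pool were also scaled by limma's Aquantile. Names of 24375 of 41174 probes were updated by accession through RefSeq's GRCm38.p6 table, and probe positions are those of mm8 in the files. Motifs were searched with Python 3.11.15. Scripts were tested on simulated data.

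The members and lists were chosen with earlier results of these data known. Of each list, up to 4 called genes with the smallest p and 2 not called were named, plus the neighbours next to the members and the 3 genes nearest each member. A regulator that the rule names is not reported here. Clu, Apoa1 and the cell type markers named were chosen after their values were seen. The alternatives tried were processed signals, plain subtraction, an offset of 16, median centring, a span of 0.1, scaling between arrays, the deposited series table, marked spots kept, looser and stricter filters, the mean of all probes, and leaving out each array.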

Additional observations from a re-analysis of the deposited data

How the results depend on the processing

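Over 15 alternatives the log2 ratio of Pon1 stayed below 0, between -1.32 and -0.88. The looser and stricter filters, the mean of all probes and the fit without replicate 4 could not change its value. Pon1 has 1 probe, and its spot on array 4 was already left out. Leaving out each array in turn gave -1.32 to -1.14 for Pon1, 0.02 to 0.08 for Pon2 and -0.18 to -0.10 for Pon3. For Pon1 these fits held 2 arrays, or 3 without replicate 4, and none held the marked spot on array 4. Median centring in place of loess gave -0.88 for Pon1, 0.30 for Pon2 and 0.29 for Pon3, with the median of all genes at 0.13, and the mean of all probes gave -0.033 for Pon2. With median centring 10792 genes were called, 52.3% of those tested. Among them were 10 of 14 HDL partners, 9 of 16 other esterases and lactonases and 5 of 12 neighbours. The processed signals and the deposited series table each called 2 of 9 regulators, where 22.3% and 21.5% of all genes were called. Median centring called 3 of 9, none of them lower. Leaving out each array gave 1411 to 5920 called genes in limma, 6.79% to 28.5% of those tested. The list counts then were 3 to 6 HDL partners, 0 to 4 regulators, 1 to 4 esterases and lactonases and 1 to 6 neighbours. Where 0 regulators were called, without replicate 2 or replicate 3, 4 and 5 of them had an unadjusted p under 0.05. Such fits test on fewer arrays, and the cause was not otherwise tested. Each array held 1 pool per genotype under 1 dye orientation, so dye and genotype cannot be told apart. The test already uses the pairing of pools, because each array gives the ratio of its own pair and the mean of those ratios was tested against 0.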
